A study of Gallus gallus with 9 samples.

Results

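The respiratory chain of the mitochondrial inner membrane was measured through 78 of the 13009 genes named on a chicken expression array. A gene was taken as a member when its symbol in the array annotation begins with NDUF, SDHA to SDHD, UQCR, COX4 to COX8 or ATP5, and the probe set with the highest mean over the 9 arrays stood for it. The members comprised 33 genes of complex I, 2 of complex II, 8 of complex III, 9 of complex IV, 14 of complex V and 12 assembly factors, which help to build complexes I and II without remaining in them.

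Complexes I and II pass electrons from NADH and succinate to ubiquinone, complex III passes them on to cytochrome c, and complex IV delivers them to oxygen. Complexes I, III and IV pump protons out of the matrix as they do so, and complex V, the ATP synthase, lets the protons back in and makes ATP. In mammals, preadipocytes that turn into fat cells build up mitochondria, which supply citrate and ATP for fatty acid synthesis. A few subunits of the chain are encoded in mitochondrial DNA and were not analysed here, so every member is a nuclear gene.

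The RNA came from primary preadipocytes, the precursors of fat cells, isolated from the abdominal fat of 3 laying hens of the Lohman strain, aged 19 wk. Confluent cultures were kept for 96 hr with DMIOA+20(S), with DMIOA or without either (control), and 3 arrays carry each of these labels. DMIOA is an adipogenic cocktail of 500 nM dexamethasone, a glucocorticoid, 0.5 mM 3-isobutyl-1-methylxanthine, which slows the breakdown of cyclic AMP, 300 μM oleic acid and insulin at 20 μg/mL, and the first group also received 5 μM 20(S)-hydroxycholesterol, an oxysterol that restrains fat cell formation in mouse cells. The arrays are labelled as biological replicates, but nothing ties an array to a hen, so the p-values measure only the spread between arrays. In such bulk RNA, fewer cells of a type and less RNA per cell cannot be told apart.

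The array labels did not follow how alike the arrays were, so the members are described both by label and by similarity. Arrays were grouped into 3 sets, and their likeness was measured over all probe sets other than those chosen to stand for the members. Set A held DMIOA 1, control 1 and control 2, set B held DMIOA+20(S) 1, DMIOA+20(S) 2 and DMIOA 2, and set C held the array numbered 3 of each label. Correlations were 0.993 to 0.997 within sets and 0.970 to 0.976 between set A and the other arrays, while sets B and C correlated at 0.989 to 0.995 with each other. Set A was thus separate, but sets B and C were not, since DMIOA+20(S) 2 and DMIOA+20(S) 3 were closer to each other (0.995) than to the arrays of their own sets. These sets were formed from the values themselves, so they are used only to describe the arrays. Fibroblast and preadipocyte markers were present, with 9 of 10 averaging at least 4 on the log2 scale, but PDGFRA was below 4 on every array. Of 8 adipocyte markers 5 averaged at least 4, and ADIPOQ, PLIN1 and CEBPA, which mark mature fat cells, were below 4 on every array.

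Values are log2 values after background correction and normalization, on which 1 is a 2-fold difference, and because probe sets bind with different strength no gene's level is set against another's. Of the 78 members, 59 averaged at least 8 and 7 were below 4 on all 9 arrays. Below 4 the processing draws dim probe sets toward a floor and can narrow a true difference. The dim members were NDUFS3 and NDUFS5 of complex I, COX7B of complex IV and ATP5E, ATP5G2, ATP5J and ATP5J2 of complex V. From lowest to highest array they still spanned 0.38 (ATP5J) to 0.97 (ATP5J2). The distance between a gene's lowest and highest array had a median of 0.47 over the members (0.18 to 1.30), against 0.64 over all genes. It exceeded 1 in 6 members (7.69%), against 24.6% of all genes, and among genes that averaged at least 8 the medians were 0.43 for the members and 0.57 for all. The 6 wide members were COX5A, COX8A and NDUFA4 of complex IV and the assembly factors NDUFAF4, NDUFAF8 and SDHAF1.

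**Figure D1:**
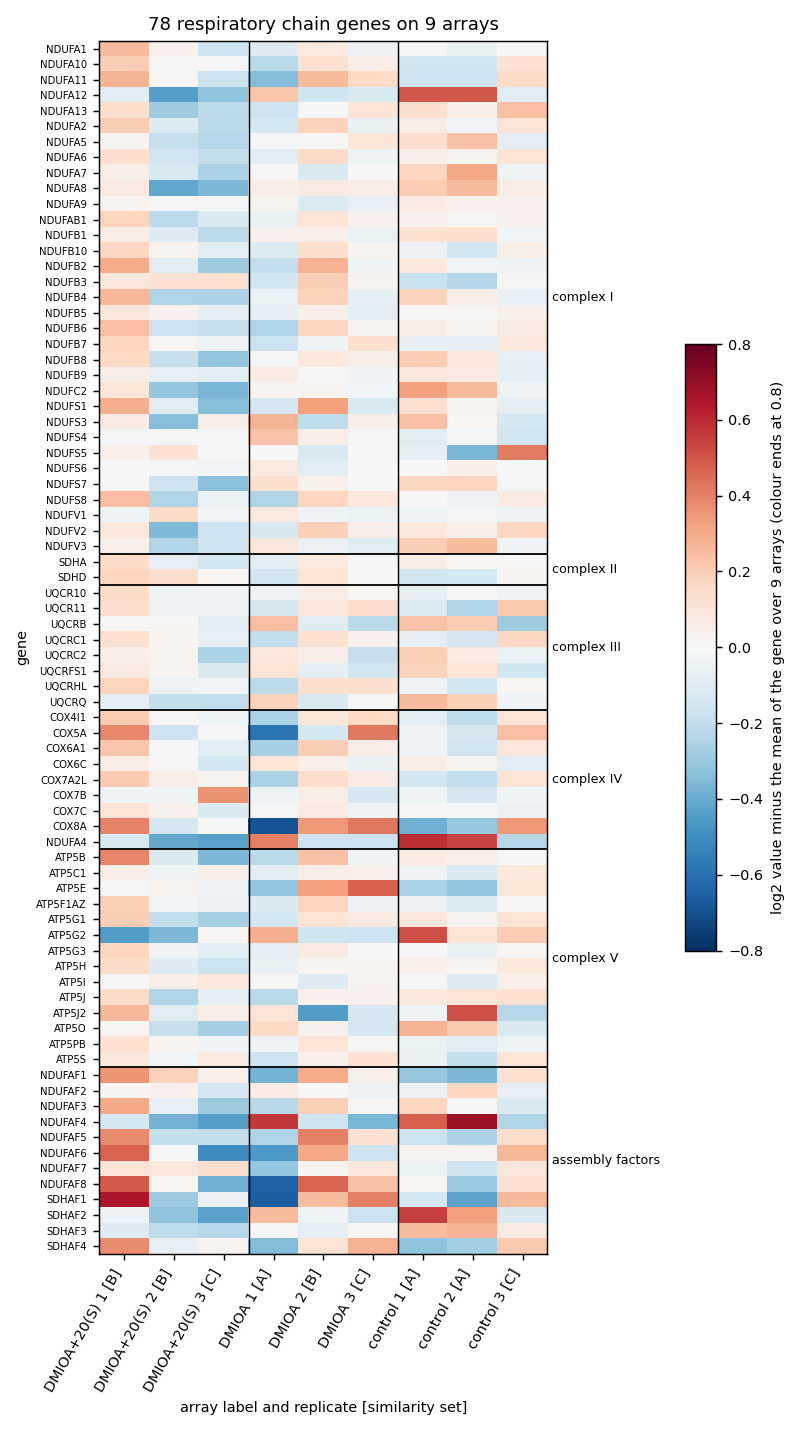
Each row is a respiratory chain gene, grouped by complex, and each column an array, labelled with its similarity set in brackets; the colour gives the log2 value minus the gene's mean over the 9 arrays. The DMIOA+20(S) 1 column is mostly red, the DMIOA+20(S) 3 column is mostly blue, and NDUFAF4, NDUFA4, NDUFA12 and SDHAF2 are reddest on the set A arrays.

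By label, no respiratory chain gene passed the test. A call required at least a 2-fold difference together with a limma adjusted p under 0.05. For DMIOA+20(S) against DMIOA, which asks what the oxysterol adds to the cocktail, 0 members were called, beside 0 of 38439 probe sets (0%). For DMIOA against control, which asks about the cocktail itself, 0 members and 0 probe sets (0%) were called. For DMIOA+20(S) against control 0 members were called, beside 2 probe sets (0.0052%). Each label holds arrays of different similarity sets, so the spread within labels includes the differences between sets. The absence of calls by label therefore does not measure the effect of a treatment. At an unadjusted p under 0.05 limma gave 1099 (2.86%), 905 (2.35%) and 3880 (10.1%) of the probe sets in DMIOA+20(S) against DMIOA, DMIOA against control and DMIOA+20(S) against control. The smallest adjusted p of any member was 0.977, 0.994 and 0.492 in DMIOA+20(S) against DMIOA, DMIOA against control and DMIOA+20(S) against control. The test of the methods, with its unadjusted threshold and the same minimum fold, gave 0 members in each comparison. It gave 5 (0.013%), 1 (0.0026%) and 221 (0.575%) of the probe sets in the same order. A difference of means cannot exceed the distance between a gene's lowest and highest array. That distance was over 1 in only 6 of 78 members, so the minimum fold alone excluded the others. Without the minimum fold, the test of the methods gave 1, 1 and 4 of 78 members at an unadjusted p under 0.05, in the same order. Over all 38439 probe sets it gave 956, 807 and 2385.

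The fitted differences of the members were small and lay on both sides of 0. The median log2 difference was -0.01 for DMIOA+20(S) against DMIOA (-0.34 to 0.23), with 36 members above 0 and 42 below, where 47.7% of all genes were above 0. It was -0.02 for DMIOA against control (-0.32 to 0.32), with 33 above and 45 below, and here 48.2% of all genes were above 0. For DMIOA+20(S) against control it was -0.03 (-0.63 to 0.37), with 34 above and 44 below, against 48.7% of all genes above 0. Complex I leaned below 0, with 23, 24 and 24 of its 33 genes below 0 in the comparisons in this order and a median of -0.08 in the last. Complex IV leaned above 0, with 7 of its 9 genes above 0 in each comparison and medians of 0.06, 0.03 and 0.07. Of all 13009 genes 6805, 6739 and 6667 were below 0. The comparisons share arrays, so these counts are not independent.

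Standard errors of the members had a median of 0.13 (0.08 to 0.34). The 95% interval lay within a 2-fold difference in either direction for 77 of 78 members in DMIOA+20(S) against DMIOA, against 84.6% of all genes. It did so for 78 of 78 in DMIOA against control, where the share over all genes was 85%, and for 75 of 78 in DMIOA+20(S) against control, where it was 79.2%. With 3 arrays per label, the intervals give the differences between labels that the values allow. They do not bound the effect of a treatment, because each label mixes similarity sets. A difference under 2-fold could not be called by the rule used, whatever its p.

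**Figure D2:**
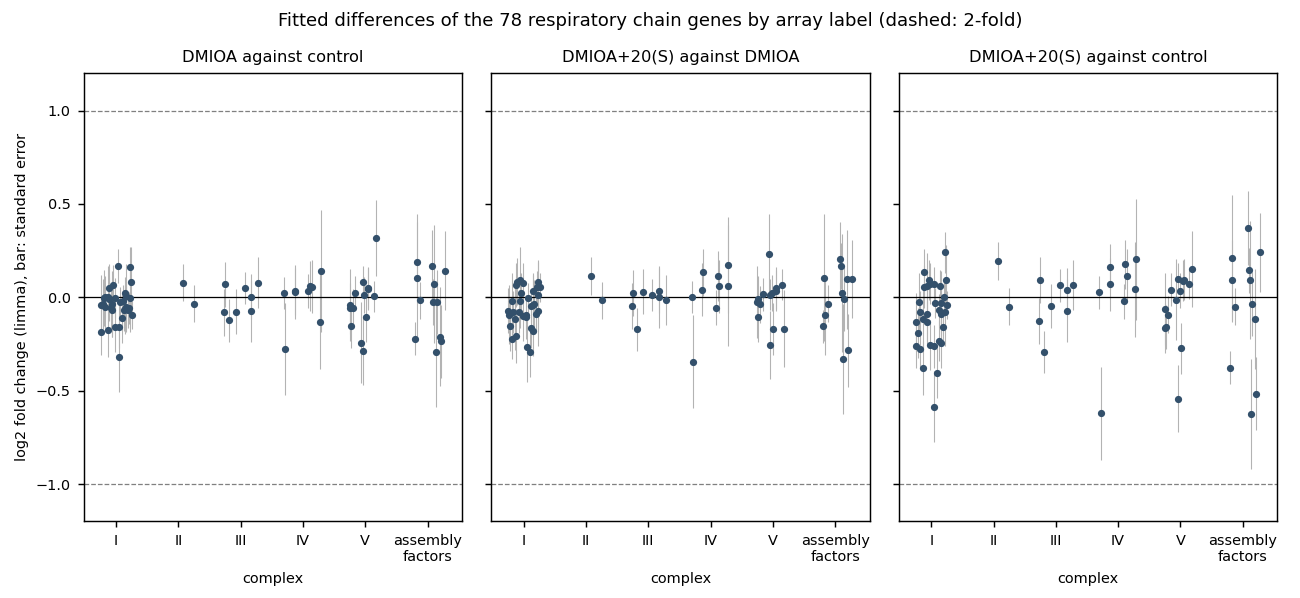
Each point is a respiratory chain gene, with complexes on the horizontal axis and the fitted log2 difference on the vertical axis, bars give the standard error and dashed lines mark a 2-fold difference. The points lie between -0.34 and 0.23 for DMIOA+20(S) against DMIOA, -0.32 and 0.32 for DMIOA against control and -0.63 and 0.37 for DMIOA+20(S) against control, all inside the dashed lines.

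At an unadjusted p under 0.05 in limma, a threshold that allows for no multiple testing, 0 members were higher and 9 were lower in DMIOA+20(S) against control, where 4.6% of all genes were higher and 8.18% lower. The 9 were NDUFA12, NDUFA8, NDUFC2 and NDUFS7 of complex I, UQCRQ of complex III, NDUFA4, the dim ATP5G2, and the assembly factors SDHAF2 and SDHAF3. None passed after adjustment. In DMIOA against control 1 member, SDHAF3, was lower and 0 were higher, where 1.05% of all genes were lower and 0.953% higher. In DMIOA+20(S) against DMIOA there were 0 members in either direction, where 1.43% of all genes were higher and 1.22% lower.

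Where arrays rather than fits were compared, few members had groups that did not overlap. In DMIOA+20(S) against control 2 members were higher on all 3 arrays (6.66% of all genes were) and 5 were lower (8.96%). In DMIOA against control 0 were higher (1.96%) and 3 lower (2.3%), and in DMIOA+20(S) against DMIOA 0 were higher (3.11%) and 1 lower (3.47%). SDHAF3, which in yeast and flies helps to insert iron-sulfur clusters into SDHB, was the member without overlap in all 3 comparisons, and it is described because its values drew attention. It read 8.50, 8.40 and 8.38 on DMIOA+20(S) arrays 1, 2 and 3, 8.60, 8.53 and 8.62 on the DMIOA arrays and 8.86, 8.88 and 8.67 on the control arrays. Every DMIOA+20(S) array was below every DMIOA array, and those were below every control array. Its log2 difference was -0.38 ± 0.09 (SE) for DMIOA+20(S) against control, with an adjusted p of 0.492 in limma.

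Several members with wide differences by label were ones on which set A stood apart, and their values are given in the order of replicates 1, 2 and 3. NDUFAF4, which acts with NDUFAF3 early in the assembly of complex I, read 7.63, 7.39 and 7.33 on the DMIOA+20(S) arrays, 8.33, 7.61 and 7.40 on the DMIOA arrays and 8.25, 8.45 and 7.53 on the control arrays. The high values were DMIOA 1, control 1 and control 2, the arrays of set A, and control 3 lay among the treated arrays. By label it averaged 7.45 ± 0.16 with DMIOA+20(S), 7.78 ± 0.49 with DMIOA and 8.08 ± 0.49 in control (SD, n = 3 each). The fitted difference of NDUFAF4 was -0.33 ± 0.29 for DMIOA+20(S) against DMIOA, -0.29 ± 0.29 for DMIOA against control and -0.63 ± 0.29 for DMIOA+20(S) against control (SE, adjusted p of 0.977, 0.994 and 0.494 in limma). Without DMIOA 1, the values were -0.056 for DMIOA+20(S) against DMIOA and -0.57 for DMIOA against control.

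NDUFA4, named as a complex I subunit but found with complex IV in mammals, read 12.51, 12.22 and 12.20 with DMIOA+20(S), 13.04, 12.46 and 12.46 with DMIOA and 13.22, 13.17 and 12.40 in control. The same 3 arrays were above 13 and the other 6 between 12.20 and 12.51. Its difference was -0.34 ± 0.25 for DMIOA+20(S) against DMIOA (adjusted p = 0.977 in limma) and -0.62 ± 0.25 for DMIOA+20(S) against control (adjusted p = 0.492). NDUFA12, an accessory subunit that joins late in the building of complex I, read 10.75, 10.39 and 10.52 with DMIOA+20(S), 11.06, 10.68 and 10.72 with DMIOA and 11.33, 11.34 and 10.75 in control. Control 3 was level with DMIOA+20(S) 1, so the groups overlapped, while the arrays of set A were at 11.06 to 11.34. The difference was -0.32 ± 0.19 for DMIOA against control (adjusted p = 0.994 in limma) and -0.59 ± 0.19 for DMIOA+20(S) against control (adjusted p = 0.492).

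NDUFAF1, an assembly factor of the membrane arm of complex I, had the opposite pattern. It read 10.67, 10.51 and 10.36 with DMIOA+20(S), 9.94, 10.62 and 10.36 with DMIOA and 10.02, 9.96 and 10.44 in control. Set A was low, at 9.94 to 10.02, and the other 6 arrays were at 10.36 to 10.67. Its difference was 0.21 ± 0.20 for DMIOA+20(S) against DMIOA (adjusted p = 0.977 in limma) and 0.37 ± 0.20 for DMIOA+20(S) against control (adjusted p = 0.514). Without DMIOA 1, the value for DMIOA+20(S) against DMIOA was 0.024.

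The other members with the largest fitted differences did not pass either. For DMIOA+20(S) against DMIOA these were ATP5J2, the f subunit of the synthase, at 0.23 ± 0.22 and COX5A, a nuclear-encoded subunit of complex IV, at 0.17 ± 0.25, with NDUFA8, an intermembrane space subunit of complex I, at -0.29 ± 0.14. For DMIOA against control they were ATP5E, the epsilon subunit, at 0.32 ± 0.20, NDUFAF5 at 0.19 ± 0.22, NDUFS4 at 0.17 ± 0.09 and ATP5G2 at -0.29 ± 0.18. NDUFAF5, an assembly factor, modifies the complex I subunit NDUFS7 during assembly, and NDUFS4 is needed for a stable complex I in mice. For DMIOA+20(S) against control NDUFB3 stood at 0.24 ± 0.11 and SDHAF4, which helps SDHA meet SDHB, at 0.24 ± 0.21 (all SE).

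**Figure D3:**
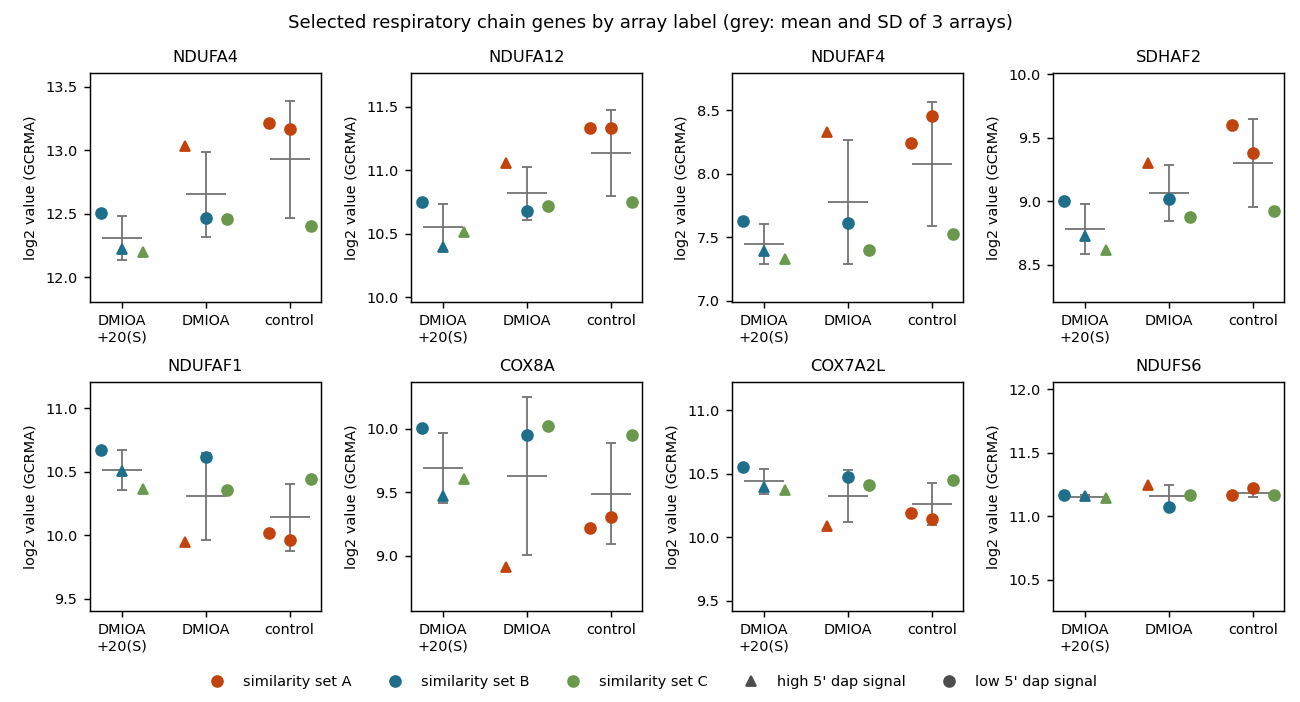
Log2 values of 8 respiratory chain genes on each array, with colour for the similarity set, triangles for the 3 arrays with high 5′ dap signal, and grey lines for the mean and SD of 3 arrays. NDUFA4, NDUFA12, NDUFAF4 and SDHAF2 are high and NDUFAF1, COX8A and COX7A2L low on the set A arrays, whichever label these carry, while NDUFS6 lies between 11.07 and 11.24.

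Counted over the members, the set A arrays lay all above the other 6 for 13 genes (16.7%) and all below them for 15 (19.2%). Over all genes the shares were 17.4% above and 15.9% below, so without regard to level the members were apart about as often. Against genes of like level they were apart less often. Among genes that averaged at least 4, set A was apart for 27 of 70 members (38.6%), against 50.6% of all such genes. Among genes that averaged at least 8, where set A was apart for 57.1% of all genes, it was apart for 23 of 59 members (39%), above for 11 and below for 12, against 26.5% above and 30.6% below over all such genes. The gaps were narrow, with a median of 0.12 for members above and 0.15 for members below, and 2 members, NDUFAF4 and NDUFA4, had a gap over 0.5.

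Complex II was measured through the flavoprotein SDHA, which oxidises succinate, and the membrane anchor SDHD. SDHA read 10.53, 10.33 and 10.24 with DMIOA+20(S), 10.30, 10.47 and 10.38 with DMIOA and 10.45, 10.40 and 10.40 in control. SDHD read 11.01, 10.97 and 10.85 with DMIOA+20(S), 10.69, 10.95 and 10.84 with DMIOA and 10.69, 10.70 and 10.86 in control. SDHA overlapped between the sets, while SDHD was at 10.69 to 10.70 on set A and at 10.84 to 11.01 on the other 6. SDHAF2, which attaches the flavin to SDHA, read 9.0, 8.73 and 8.62 with DMIOA+20(S), 9.30, 9.02 and 8.88 with DMIOA and 9.60, 9.38 and 8.92 in control. It was high on set A, the other way from SDHD, while SDHAF4 was low there, at 6.92 to 6.99 against 7.20 to 7.64.

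In complex III 6 of 8 genes (75%) were apart on set A, of which 4 were above and 2 below. Over all genes 33.3% were apart, and 57.1% of those that averaged at least 8, as 7 of these 8 did. The small subunits UQCRB and UQCRQ were above, at 6.85 to 6.89 against 6.36 to 6.66 and at 9.56 to 9.63 against 9.18 to 9.37. UQCRFS1, the iron-sulfur protein that takes electrons from ubiquinol, was at 10.06 to 10.14 on set A against 9.80 to 10.03. UQCRC2, a core protein, was above by 0.01, and the core protein UQCRC1 was below by under 0.01. UQCR11 was below, at 10.11 to 10.24 against 10.31 to 10.56. UQCR10 and UQCRHL, a hinge protein gene, overlapped between set A and the rest, ranging from 11.88 to 12.11 and from 10.98 to 11.37.

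In complex IV, COX8A, a small membrane subunit, had the widest range. It read 10.00, 9.47 and 9.61 with DMIOA+20(S), 8.91, 9.95 and 10.02 with DMIOA and 9.22, 9.30 and 9.95 in control. All of set A was low, and DMIOA 1 lowest of the 9. COX7A2L, which ties complexes III and IV into supercomplexes in mice, was at 10.09 to 10.19 on set A and at 10.37 to 10.55 on the others. COX4I1, an isoform of the regulatory subunit, was at 12.15 to 12.32 against 12.37 to 12.61. COX6A1 and COX7C overlapped, with COX7C between 12.57 and 12.79 over all 9 arrays.

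In complex V, ATP5O, the stalk subunit that holds the catalytic head in place, was above on set A, at 12.09 to 12.21 against 11.66 to 11.97. ATP5E, ATP5PB and ATP5S were below, ATP5E in the dim range at 3.01 to 3.07 against 3.29 to 3.80. ATP5G1, ATP5G2 and ATP5G3 encode the same c subunit of the rotating ring. ATP5G1 ranged from 9.74 to 10.21 and ATP5G3 from 12.32 to 12.58, and the dim ATP5G2 from 2.25 to 3.22. ATP5I, the e subunit, ranged from 12.96 to 13.15. ATP5F1AZ is the alpha subunit gene of the Z chromosome, and whether its probe set also reads the copy on the W chromosome of hens was not tested.

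In complex I 29 of 33 genes averaged at least 8, a level at which 57.1% of all genes were apart on set A (33.3% at any level). Of the 33, 8 (24.2%) were apart, of which 5 were above and 3 below. Besides NDUFA12, those above were NDUFS7 and NDUFV3 with gaps of 0.09 and 0.05, and NDUFB9 and NDUFS6 with gaps of 0.02 and under 0.01. NDUFB3, NDUFA10 and NDUFB7 were below. NDUFB1 and NDUFB5, accessory subunits of the membrane arm, ranged from 11.19 to 11.53 and from 11.64 to 11.82, and the dim NDUFS5 from 2.23 to 3.01.

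Between sets B and C, 9 members were higher on all 3 arrays of set B (11.5%) and 0 were lower, where 9.26% of all genes were higher and 11.1% lower. The gaps were 0.01 to 0.09, and the genes were SDHD, UQCRC2, UQCRFS1, COX6C, COX7C, NDUFA1, ATP5PB, NDUFAF1 and NDUFAF2. NDUFAF2 is a relative of NDUFA12 that holds its place during assembly.

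Some markers of cell state and of other cells differed on set A. Of the 10 fibroblast and preadipocyte markers 3 were above and 4 below the rest on set A. Set A was apart for 33.3% of all genes and for 50.6% of those that averaged at least 4. The summed signal of the 8 adipocyte markers, on the linear scale, was 1637 to 1906 on set A. It was 13803 to 15067 on set B and 11481 to 11907 on set C. FABP4, the fatty acid carrier of fat cells, carried most of the sum. It read 10.04 to 10.23 on set A and 13.39 to 13.73 on the others. Of the 8 markers 5 were below the rest on set A, among them ADIPOQ and PLIN1, which were below 4 on every array. PPARG leaned the other way, at 8.93 to 9.30 on set A. These values were above every other array except DMIOA+20(S) 2, which lay within that range. LPL and CEBPA overlapped between set A and the rest. All 7 leukocyte markers were above the rest on set A, with sums of 201 to 237. The sums were 109 to 124 on set B and 101 to 132 on set C. Only 1 of the 7, CTSS, averaged at least 4, and LCP1 and CYBB were below 4 on every array. Endothelial markers summed to 140 to 163 on set A, 37 to 52 on set B and 53 to 95 on set C, with VWF, KDR and TEK below 4 throughout. Of these 5 markers, 2 were above and 1 below on set A, and CDH5 carried most of the sum, at 6.74 to 7.14 on set A and 3.94 to 6.15 on the others. The muscle actin ACTA1 read 11.43 to 11.63 on set A and 7.61 to 8.68 on the others. The muscle marker TNNT3 overlapped, at 3.98 to 4.06 on set A and 3.56 to 4.81 on the others. MYOD1 and MYOG, which define muscle cells, were below 4 on every array, and MYOG was below the rest on set A. The mesothelial and erythroid markers measured were also below 4 on every array. The part of these cells in the members' values was not tested.

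A second pattern ran through most members within every set. On DMIOA+20(S) 1 the median member stood 0.13 above its own mean over the 9 arrays, on DMIOA+20(S) 2 it stood at -0.06 and on DMIOA+20(S) 3 at -0.11. On the DMIOA arrays the medians were -0.08, 0.07 and 0.01, and on the control arrays 0.02, 0.01 and 0.02. The medians over all genes lay between -0.02 and 0.01. Over all genes that averaged at least 8, as 59 of the 78 members did, they were 0.03, -0.04 and -0.01 on the DMIOA+20(S) arrays. On the DMIOA arrays these medians were -0.04, 0.02 and 0.03, and on the control arrays -0.003, 0.003 and 0.025. DMIOA+20(S) 1 was the highest of the 9 arrays for 33 of 78 members (42.3%), against 13.1% of all genes, and DMIOA+20(S) 3 was the lowest for 30 (38.5%), against 11.5%. Arrays of the same label thus lay on opposite sides.

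The low arrays, DMIOA 1, DMIOA+20(S) 2 and DMIOA+20(S) 3, each belonged to a different set, and all 3 had unusual control probe sets. The 5′ probe set of dap, a bacterial control transcript, read 8.33 to 8.67 on them and 5.43 to 6.52 on the other 6, although its 3′ probe set read 10.01 to 10.22 on them and 9.78 to 10.38 on the others. The 5′ probe set of thr read 4.24 to 5.04 on these arrays and 2.10 to 2.83 on the others. The control bioC read 8.46 to 8.48 against 9.62 to 9.92, and the 5′ probe set of the cells' own EF1A read 13.61 to 13.76 against 12.94 to 13.24. These 3 arrays are counted as one kind below because of the dap values, a choice made after the data were seen. They are spread unevenly over the labels, with most of them labelled DMIOA+20(S) and no control array among them.

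The high-dap array was the lowest of its set for 42.6% of all genes in set A, 45.1% in set B and 41.3% in set C. For genes that averaged at least 8 the shares were 52.2%, 58.8% and 49.7%. Among the members this array was the lowest for 53 of 78 (67.9%) in set A, 61 (78.2%) in set B and 59 (75.6%) in set C. It was the lowest in all 3 sets for 47 members (60.3%), where 18.1% of all genes had this pattern, and the highest in all 3 for 2 members, ATP5I and NDUFV1, where 9.31% of all genes did. Among genes that averaged at least 8, it was the lowest in all 3 sets for 39 of 59 members (66.1%) against 32% of all. The 47 were 23 of 33 genes of complex I, 1 of 2 of complex II, 3 of 8 of complex III, 6 of 9 of complex IV, 7 of 14 of complex V and 7 of 12 assembly factors. The part of the labelling in these values, and in the leans of complexes I and IV by label, was not tested.

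ATP5B, the catalytic beta subunit of the synthase, was among the 47. It read 10.97, 10.46 and 10.21 with DMIOA+20(S), 10.36, 10.81 and 10.54 with DMIOA and 10.64, 10.62 and 10.56 in control. NDUFS1, the large iron-sulfur subunit of complex I, read 10.80, 10.41 and 10.17 with DMIOA+20(S), 10.37, 10.84 and 10.39 with DMIOA and 10.63, 10.54 and 10.44 in control. In both genes DMIOA 1 was the lowest of set A, DMIOA+20(S) 2 of set B and DMIOA+20(S) 3 of set C. NDUFV1, which binds NADH, ran the other way, at 8.77, 8.94 and 8.78 with DMIOA+20(S), 8.88, 8.76 and 8.74 with DMIOA and 8.77, 8.78 and 8.77 in control. ATP5B and NDUFS1 were picked as examples after their values were seen.

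Among the members, the assembly factors swung widest. Their median was 0.33 above their own means on DMIOA+20(S) 1, -0.06 on DMIOA+20(S) 2 and -0.21 on DMIOA+20(S) 3, with -0.28, 0.15 and 0.03 on the DMIOA arrays and -0.02, -0.07 and 0.10 on the control arrays. Their distance between lowest and highest array had a median of 0.73. That was close to the 0.74 of all genes that averaged at least 4, as 11 of these 12 did. SDHAF1, needed for the iron-sulfur clusters of SDHB, read 4.02, 3.09 and 3.33 with DMIOA+20(S), 2.71, 3.63 and 3.77 with DMIOA and 3.23, 2.94 and 3.63 in control. SDHAF1 was thus in the dim range below 4 on every array but DMIOA+20(S) 1. NDUFAF8, a partner of NDUFAF5, read 6.85, 6.38 and 5.98 with DMIOA+20(S), 5.71, 6.83 and 6.60 with DMIOA and 6.38, 6.07 and 6.48 in control. Both were lowest on DMIOA 1 and highest on DMIOA+20(S) 1, and their labels overlapped. Without the 3 high-dap arrays, which leaves 1 DMIOA+20(S) array, the median member difference turned to 0.13 in DMIOA+20(S) against control and to 0.10 in DMIOA+20(S) against DMIOA, and 0 members were called.

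**Figure D4:**
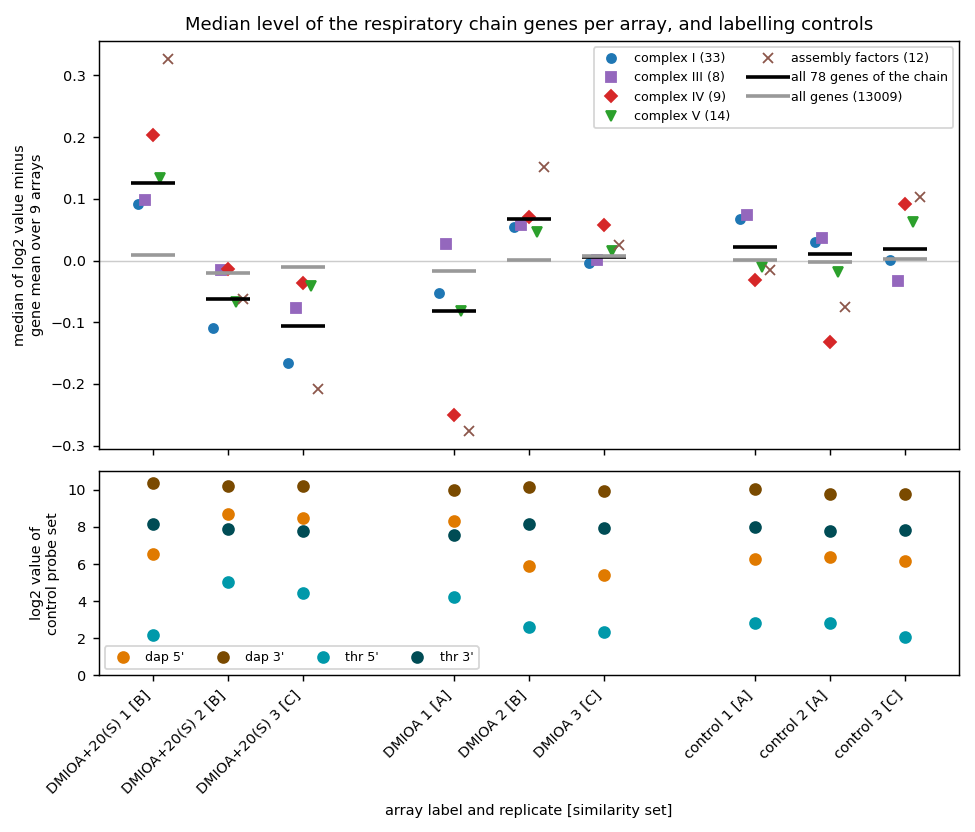
The upper panel shows, for each array, the median over genes of the log2 value minus the gene's mean, by complex (complex II, with 2 genes, is not drawn), for all respiratory chain genes (black) and for all genes (grey); the lower panel shows the log2 values of the dap and thr control probe sets. The black lines are at -0.06, -0.11 and -0.08 on the 3 arrays whose 5′ dap signal is above 8, and DMIOA+20(S) 1 is highest at 0.13.

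Other probe sets of the same genes gave a partial check. Of the 63 other probe sets of 37 members, 17 averaged at least 4. For 9 of these 17 set A was apart on the chosen probe set, and 2 of the 9 were apart in the same direction. For SDHAF2, a second probe set was also above on set A, while another overlapped, at 6.87, 7.44 and 7.08 on set A and 6.10 to 6.91 on the other arrays. A second probe set of UQCRC2 read 6.96, 8.16 and 8.21 with DMIOA+20(S), 8.45, 7.05 and 6.70 with DMIOA and 7.33, 7.54 and 7.36 in control. It was highest on the 3 high-dap arrays, unlike the chosen probe set. UQCRC1 had such a second probe set too, at 5.24 to 5.57 on those arrays and 4.29 to 4.80 on the others.

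Genes that serve the chain from outside the membership rule gave 0 calls in any comparison. Among 15 electron carrier and ubiquinone synthesis genes set A was above the rest for 5 and below for 1 (40% apart). Over all genes 33.3% were apart, and 50.6% of those that averaged at least 4, as 13 of these 15 did. The gene below was COQ8A, a kinase-like protein of ubiquinone synthesis. COQ8A read 10.79, 10.47 and 10.28 with DMIOA+20(S), 8.37, 10.69 and 10.28 with DMIOA and 8.29, 8.22 and 10.27 in control. COQ10B, which binds ubiquinone, was the reverse, at 8.64, 8.68 and 8.44 with DMIOA+20(S), 9.81, 8.66 and 8.31 with DMIOA and 9.91, 9.82 and 8.54 in control. The gap between set A and the rest was wider for COQ8A and COQ10B than for any of the 78 members.

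Of 27 assembly factors outside the rule, set A was above for 9 and below for 5 (51.9% apart), close to the 50.6% of all genes that averaged at least 4. ATPAF2, a chaperone of the ATP synthase head, read 6.13 to 6.65 on set A and 5.12 to 6.03 on the others, and NUBPL, an iron-sulfur factor of complex I, read 6.41 to 6.79 and 5.26 to 6.12. Of 67 genes of the mitochondrial ribosome, which makes the subunits encoded in mitochondrial DNA, set A was above for 5 (7.46%) and below for 18 (26.9%). Over all genes the shares were 17.4% above and 15.9% below. Over genes that averaged at least 4, as 62 of these 67 did, they were 25.9% above and 24.7% below. The array medians of the ribosome genes were 0.12, -0.03 and -0.11 with DMIOA+20(S), -0.14, 0.13 and 0.06 with DMIOA and 0.01, 0.02 and 0.04 in control. The low values were again on the high-dap arrays.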

How the data were processed

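RNA of cultured hen preadipocytes was hybridized to 9 Affymetrix chicken arrays, 3 for each label. The authors corrected, normalized and summarized the scans with GCRMA in FlexArray, whose versions are not given in the sources used here. The deposited table holds log2 values, 1 per probe set and array. The 96 control probe sets were left out of the tests and 38439 were kept, of which the platform annotation gives 1 symbol for 27168, several for 177 and none for 11094. One COX7A2 probe set shared with another gene was not named. RefSeq gives 77 of the 78 members the same symbol, and 1 (NDUFB7) was not matched.

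The 9 arrays entered a single limma fit (version 3.58.1, R 4.3.3) with eBayes moderation and two-sided tests, with Benjamini-Hochberg adjustment over all probe sets in each comparison. A call needed an adjusted p under 0.05 and a log2 difference of at least 1. The step was tested on simulated data. Array numbers limit the precision. Groups came from the sample titles alone. Members, gene lists, markers and similarity sets were chosen with earlier results of these data known. Named genes were the 2 with the highest mean and the 2 with the widest range per complex. Also named were the 3 with the largest fitted differences per direction and comparison, and isoforms of one subunit. Of the further lists, the 2 widest genes were named for most. Values of PFKL, PFKM, UCP3 and the widest genes of the mitochondrial ribosome are not given. Others were named as examples of a count. Alternatives were blocks for replicate number, title wording and labelling controls, subsets of arrays, other normalizations, a filter on low values, the methods' t-test and leaving out each array. Figures were drawn with Python 3.11.15 and matplotlib 3.10.9.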

Additional observations from a re-analysis of the deposited data

How the results depend on the processing

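In every alternative run, 0 respiratory chain genes were called. The 2 probe sets called in DMIOA+20(S) against control became 1 with quantile normalization and 0 with the title wording as a block, without the arrays numbered 3, with the 2 compared groups alone, the methods' t-test after Benjamini-Hochberg adjustment, the filter on low values, trend and robust variances, the labelling control block, or without the 3 high-dap arrays. They were also 0 when any 1 of the 9 arrays was left out (0 to 0), controls included. Correlations of the deviations of same-numbered arrays 1, 2 and 3 were 0.70, -0.56 and 0.70 between DMIOA and control, -0.30, 0.00 and 0.20 between DMIOA+20(S) and DMIOA, and 0.04, 0.14 and 0.08 between DMIOA+20(S) and control. Since not every pair was over 0.1 in any of the comparisons, the replicate numbers were not taken as pairs, and with the replicate block 0 probe sets were called. The block moved no member past the threshold.

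The median member difference of DMIOA+20(S) against control was -0.03, and it was 0.078 with the labelling control block and 0.13 without the 3 high-dap arrays. For DMIOA+20(S) against DMIOA it was -0.01 and became 0.10 without those 3 arrays, and it ranged from -0.10 (without DMIOA+20(S) 1) to 0.046 when single arrays were left out. In DMIOA+20(S) against DMIOA, single genes changed sign. COX5A stood at -0.042 with array weights and at -0.069 without DMIOA 1 (up to 0.43 without DMIOA 3), and without the 3 high-dap arrays NDUFA4 stood at 0.048, NDUFAF4 at 0.12 and NDUFA8 at 0.010. Single arrays moved other values by over 1.5 times, none of them called, and these are examples. Leaving out DMIOA 1 in DMIOA+20(S) against DMIOA gave -0.15 for NDUFA4, and leaving out DMIOA 2 gave 0.085 for ATP5J2. For DMIOA against control, NDUFAF5 was 0.033 without DMIOA 2, NDUFAF4 was -0.10 and ATP5E 0.16 without DMIOA 3, and for DMIOA+20(S) against control SDHAF4 was 0.11 without DMIOA+20(S) 1. Leaving out single arrays in DMIOA+20(S) against control and in DMIOA against control gave medians of -0.10 to 0.036 and -0.058 to 0.018. Of the gene values 370 of 375 kept their direction and side of the threshold. Keeping the side says little, because a call needed a 2-fold difference and the main differences were well under it. Of the medians 56 of 60 moved by less than 0.083, the SD of the members' median between arrays of the same label. That SD is larger than each main median, so a median could change sign within it. The cause of the changes was not tested. Where 1 array of a label was left, it was assumed to vary like the other groups. The labelling control block and the leaving out of the high-dap arrays were chosen after seeing the data.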

Other observations

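Further lists of mitochondrial and energy metabolism genes had 0 calls by label. Set A (DMIOA 1, control 1 and control 2) was apart from the other 6 arrays for 33.3% of all genes, 50.6% of those that averaged at least 4 and 57.1% of those that averaged at least 8, and the counts below are to be read against these shares. Of 15 genes of the tricarboxylic acid cycle, set A was above the other 6 arrays for 4 and below for 5 (60% apart). SUCLG1, a subunit of succinyl-CoA ligase, read 5.61, 5.98 and 5.89 with DMIOA+20(S), 5.17, 5.56 and 5.45 with DMIOA and 5.20, 4.98 and 5.54 in control. SUCLA2, another subunit of that enzyme, overlapped, between 7.89 and 9.09. Of 14 glycolysis genes 4 were above and 6 below (71.4%).

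Of 16 regulators of mitochondrial biogenesis, set A was above for 1 and below for 5 (37.5%). TFB2M, which starts transcription of mitochondrial DNA, read 8.92, 8.92 and 8.68 with DMIOA+20(S), 8.03, 8.76 and 8.78 with DMIOA and 7.82, 8.01 and 8.72 in control. PPRC1 had the widest range of these regulators. It read 6.71, 6.19 and 6.54 with DMIOA+20(S), 7.08, 6.76 and 7.12 with DMIOA and 7.74, 7.80 and 7.17 in control. Its labels did not overlap. For DMIOA+20(S) against control its fitted difference, -1.09, was over 2-fold but not called. In that comparison 8.96% of all genes were lower without overlap. Among 7 antioxidant enzymes 2 were above and 2 below (57.1%). NNT, which supplies mitochondrial NADPH, was high on set A at 9.97 to 10.13 against 9.17 to 9.36, and GPX4, which removes lipid peroxides, was low there at 12.00 to 12.19 against 12.40 to 12.71. VDAC2, an outer membrane channel, was high on set A at 12.47 to 12.56 against 11.96 to 12.10.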
